A study of Mus musculus with 9 samples.

Results

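The genes described here make cholesterol and fatty acids. They are 33 genes taken by name, 22 of the sterol branch (17 enzymes and 5 regulators) and 11 of the fatty acid branch (10 enzymes and Srebf1). The rule itself uses no measured value, but the members were chosen with earlier results of these data known. Each was found on the arrays through the RefSeq accession of its probes, and the probe with the highest mean over the 9 arrays stands for the gene. All 33 were measured, among 21964 features of which 15346 carry a gene name, and the probe of each was well above background on 9 of 9 arrays, so that the filter on dim probes removed no member.

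RNA of normal colonic mucosa from ICR mice, an outbred stock, was hybridised to 9 single-colour arrays. Every group, controls included, was injected under the skin with 1,2-dimethylhydrazine (DMH), which causes colon tumors in rodents, at 20 mg/kg weekly over 20 weeks. The DMH group (3 arrays) drank plain water. The butyrate groups drank water containing 1.5% butyrate, a bacterial short-chain fatty acid that colonocytes burn and that inhibits histone deacetylases. They were split by whether the mice bore tumors: butyrate without tumors (3 arrays) and butyrate with tumors (3 arrays). Groups follow the sample titles, descriptions and source names. The separate label for tumor status states the reverse for all 6 butyrate samples; were it right, the results of each butyrate group against DMH would belong to the other, and the difference between both would change sign. Tumor status of the DMH mice is not in their titles, and no label gives age, sex or whether samples of a group came from different mice, so p-values measure the spread between samples, which may be technical.

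Values are log2 signal minus the 75th percentile of the array, so a difference of 1 is a doubling relative to the array. That percentile was 281, 444 and 416 units of intensity in arrays 1 to 3 without tumors. It was 188, 832 and 880 with tumors and 740, 808 and 822 in DMH. Of the spots, 57.8% to 72.5% were well above background, and no spot was saturated. All arrays without tumors and array 1 with tumors shared slide 1, arrays 2 and 3 with tumors slide 2, and the DMH arrays slides 3 and 4, which were scanned on another day. Slide, scan day and treatment therefore cannot be told apart in any comparison with DMH. By the percentile, every array of slide 1 was also dimmer than every array of the other slides. The part of array brightness in the changes was not tested. The mucosa markers were present: summed epithelial marker signal (7 genes with a value on every array, log2 scale) was 8.57 to 8.78 without tumors, 8.96 to 9.17 with tumors and 9.61 to 9.79 in DMH, lower in all 6 butyrate arrays than in the DMH arrays. In such bulk tissue, fewer cells of a type and less RNA per cell cannot be told apart. A gene was called when limma's moderated test gave an adjusted p under 0.05 (Benjamini-Hochberg over all 21964 features).

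Cholesterol is built from acetyl-CoA through mevalonate, farnesyl diphosphate, squalene and lanosterol, and most enzymes of the route are switched on together by the transcription factor SREBP2, the product of Srebf2. When membrane sterol is plentiful, INSIG proteins hold SCAP, the escort of SREBP, in the endoplasmic reticulum, and the factor is not released. SREBP1, from Srebf1, drives mainly fatty acid synthesis, in which ATP citrate lyase, acetyl-CoA carboxylase and fatty acid synthase make palmitate, and desaturases and elongases modify it. In the colon, epithelial cells make both kinds of lipid for their fast renewal.

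The sequences upstream of 4 members are shown as examples of the windows that were searched for motifs of SREBP2 and its partner factors. These 4 were chosen because they moved in the comparisons described further on. Whether any such factor acts in these windows was not tested. RefSeq promoter windows of build GRCm38.p6, each 300 bases from 250 before to 50 after a transcription start, were matched by symbol for 26 of the 33 members (34 windows, since some genes have several starts). Capitals mark matches, on either strand, to a sterol element (TCACNCCAC), an E-box (CACGTG), a GC box (GGGCGG) and a CCAAT box. In the windows printed, no match overlaps another.
Hmgcs1, chr13:119690101-119690400, plus strand: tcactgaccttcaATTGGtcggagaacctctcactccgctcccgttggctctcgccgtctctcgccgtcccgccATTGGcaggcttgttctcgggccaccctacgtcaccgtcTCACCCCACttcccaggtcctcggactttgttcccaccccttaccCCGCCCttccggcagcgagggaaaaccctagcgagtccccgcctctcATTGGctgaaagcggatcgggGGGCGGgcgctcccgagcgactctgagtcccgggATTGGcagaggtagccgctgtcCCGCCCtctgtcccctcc
Insig1, chr5:28071162-28071461, plus strand: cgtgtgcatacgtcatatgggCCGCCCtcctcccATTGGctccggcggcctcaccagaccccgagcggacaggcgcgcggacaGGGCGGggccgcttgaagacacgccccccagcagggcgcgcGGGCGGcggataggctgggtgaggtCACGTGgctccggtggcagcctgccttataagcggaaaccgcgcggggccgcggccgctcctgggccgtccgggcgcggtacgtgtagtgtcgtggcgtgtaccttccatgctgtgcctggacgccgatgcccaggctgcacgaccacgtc
Sc5d, chr9:42264251-42264550, minus strand: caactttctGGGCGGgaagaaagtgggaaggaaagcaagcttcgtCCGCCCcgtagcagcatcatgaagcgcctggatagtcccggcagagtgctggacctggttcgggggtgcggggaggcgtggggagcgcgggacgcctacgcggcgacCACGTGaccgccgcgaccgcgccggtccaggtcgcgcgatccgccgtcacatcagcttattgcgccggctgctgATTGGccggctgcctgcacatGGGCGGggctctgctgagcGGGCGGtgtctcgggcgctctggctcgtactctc
Elovl5, chr9:77917115-77917414, plus strand: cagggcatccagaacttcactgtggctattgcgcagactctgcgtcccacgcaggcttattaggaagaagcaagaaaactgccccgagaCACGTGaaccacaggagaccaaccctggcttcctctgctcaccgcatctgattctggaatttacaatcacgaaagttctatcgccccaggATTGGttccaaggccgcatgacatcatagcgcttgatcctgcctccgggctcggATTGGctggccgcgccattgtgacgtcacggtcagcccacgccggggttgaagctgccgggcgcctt
In the Hmgcs1 window the sterol element reads TCACCCCAC, from base -137 to base -129 relative to the start. It was the 1 member window of 34 with this motif (2.94%, against 1.24% of all 32851 windows of this length). The E-box lay from base -101 to -96 in Insig1, from -98 to -93 in Sc5d and from -161 to -156 in Elovl5. Dhcr7 and Scap held it too, which made 6 of 34 member windows (17.65%, against 7.15% of all windows). The Scap windows overlap and share the same E-box, so that site is counted more than once. By gene, 5 of 26 members held the motif. The CCAAT box was in 22 member windows (64.71% against 37.41%) and the GC box in 24 (70.59% against 35.66%). These letters describe the windows, whose base composition was not matched, and no factor's binding was measured here.

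Butyrate without tumors against DMH asks which members differed between these groups, with tumor status and butyrate not separable because the DMH titles give none. Several steps of the cholesterol route and its main regulator stood higher without tumors: the enzymes Hmgcs1, Sqle, Cyp51, Msmo1, Sc5d and Dhcr7 and the regulator Srebf2 each rose, to 1.53 to 1.92 times their DMH level relative to the array. Of the fatty acid branch, Elovl5 and Fads1, which lengthen and desaturate polyunsaturated chains, rose, and Acly and Scd1, at the entry and the desaturation step of fatty acid synthesis, fell. In all, 11 of 33 members were called (33.3%, 9 higher and 2 lower), where 30.5% of all features were called, so the share of members called was near that of any feature. By direction, 7 of 22 sterol members were called higher (31.8%, where 16.6% of features were called higher) and 0 lower (13.8% of features were called lower). An unadjusted limma p under 0.05 was found for 17 of 33 members and for 9777 of 21964 features. Without scaling between arrays all 9 called increases turned into changes of -0.46 to -0.14, while the median of all features stood at -1.0; with scaling that median was 0.08.

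Hmgcs1 encodes the synthase that makes HMG-CoA, the precursor of mevalonate. Its values were 4.62, 4.57 and 5.29 in arrays 1 to 3 without tumors, 4.68, 4.39 and 4.03 with tumors and 4.06, 3.86 and 4.02 in DMH. Every array without tumors lay above every DMH array, and array 3 with tumors lay among the DMH arrays. The change was 0.85 ± 0.25 (SE, 3 against 3 arrays; 1.8-fold, limma adjusted p = 0.0327). Sqle, the squalene epoxidase that opens the sterol-specific part of the route, had 4.28, 4.16 and 4.82 without tumors, 3.95, 3.91 and 3.31 with tumors and 3.54, 3.51 and 3.52 in DMH. The arrays without tumors were above all others, and array 3 with tumors was the lowest of the 9. Sqle rose by 0.90 ± 0.24 (limma adjusted p = 0.0244).

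Cyp51, the demethylase of lanosterol, had 0.85, 0.86 and 1.58 without tumors, 0.86, 0.89 and 0.22 with tumors and 0.08, 0.16 and 0.23 in DMH, and rose by 0.94 ± 0.26 (limma adjusted p = 0.028). Array 3 without tumors stood well above the rest, and array 3 with tumors within the DMH range. Msmo1, which oxidises the methyl groups next removed from the sterol ring, had 5.0, 4.84 and 5.52 without tumors, 5.06, 4.67 and 4.17 with tumors and 4.22, 4.23 and 4.13 in DMH. Again array 3 without tumors was on top and array 3 with tumors among the DMH arrays, and the change was 0.93 ± 0.26 (limma adjusted p = 0.0294).

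The last steps carry the ring to cholesterol. Sc5d, a sterol desaturase, had 3.48, 3.00 and 3.37 without tumors, 3.04, 2.74 and 2.18 with tumors and 2.39, 2.36 and 2.30 in DMH. Here array 1 without tumors was highest, array 2 without tumors lay just below array 1 with tumors, and array 3 with tumors was the lowest of all. Sc5d rose by 0.94 ± 0.24 (1.91-fold, limma adjusted p = 0.021). Dhcr7, the reductase of the final step, had 4.37, 4.36 and 4.71 without tumors, 4.11, 4.43 and 3.91 with tumors and 3.94, 3.90 and 3.75 in DMH, a smaller rise of 0.62 ± 0.19 (limma adjusted p = 0.0381) in which array 2 with tumors lay among the arrays without tumors.

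Among the regulators, Srebf2, which encodes the factor that drives the route, had 3.02, 3.09 and 3.42 without tumors, 3.13, 2.61 and 2.54 with tumors and 2.33, 2.33 and 2.27 in DMH. All 6 butyrate arrays were above all 3 DMH arrays, and array 1 with tumors lay among those without tumors. The change without tumors was 0.87 ± 0.20 (limma adjusted p = 0.0156). Scap, the escort of SREBP, had 3.38 to 3.59 without tumors against 3.18 to 3.32 in DMH, a change of 0.25 ± 0.16 that did not pass (limma adjusted p = 0.264). Insig1 and Insig2, which retain that escort, had 0.76 ± 0.26 (limma adjusted p = 0.0556) and 0.53 ± 0.19 (limma adjusted p = 0.0635), and Stard4, a carrier of sterol between membranes, -0.28 ± 0.22 (limma adjusted p = 0.35).

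**Figure D1:**
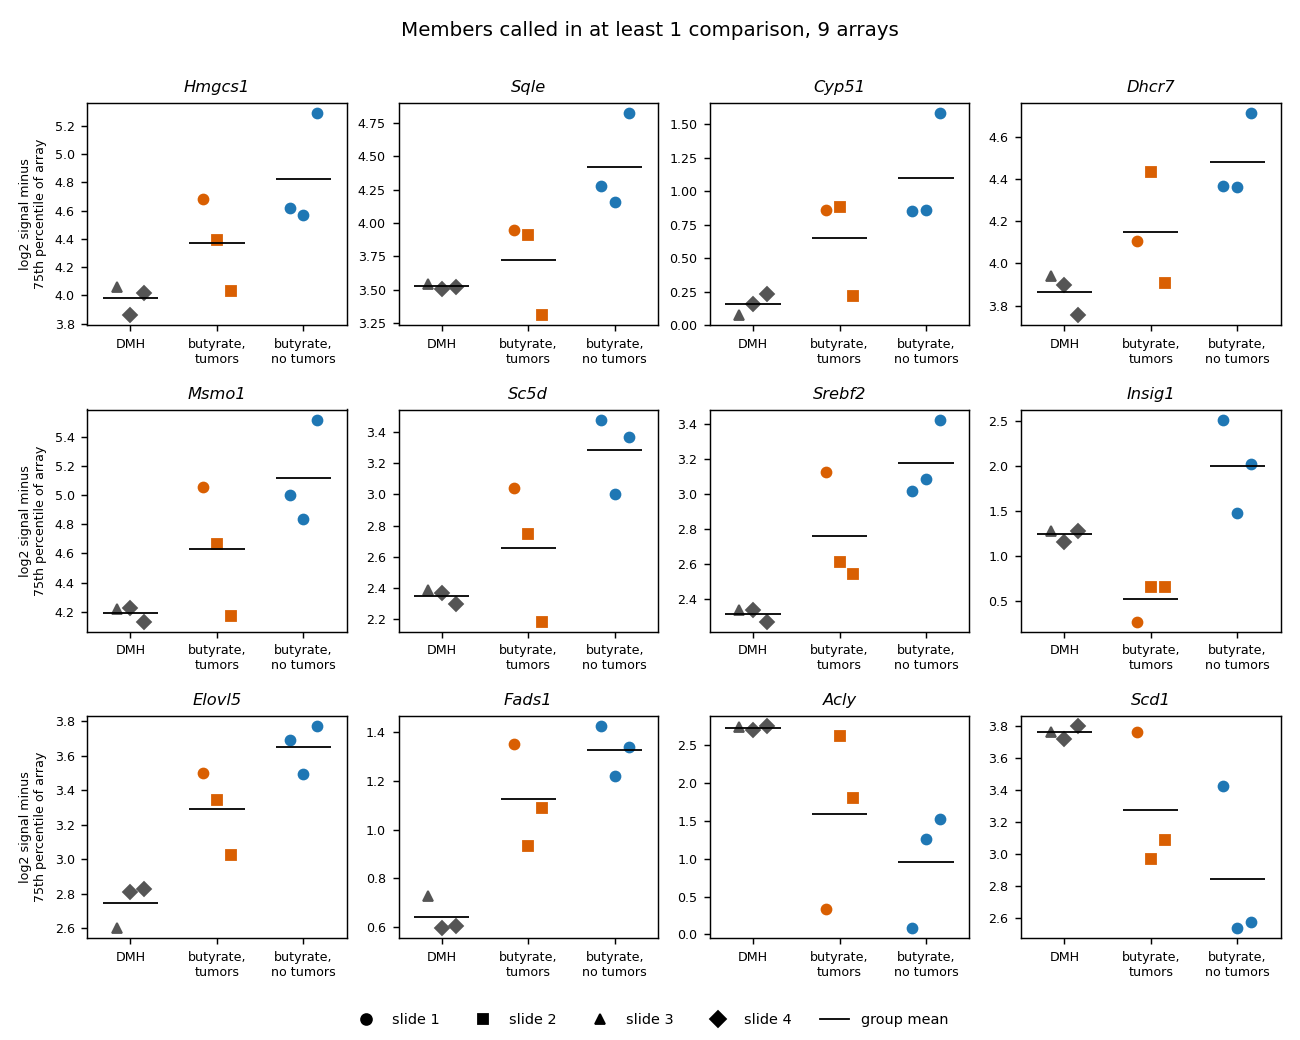
Log2 signal minus the 75th percentile of the array (y axis) by group (x axis) for the 12 members called in at least 1 comparison. Each point is 1 array, its shape gives the slide, and the line is the mean of the 3 arrays of a group; y axes differ between genes. In the 7 sterol genes Hmgcs1 to Srebf2 array 3 with tumors lies nearest the DMH arrays, Insig1 is below DMH with tumors and above it without, and Acly and Scd1 are lower without tumors; without scaling between arrays the increases against DMH have the other sign.

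The other members of the route had differences of both signs. The 15 sterol members not called in this comparison ranged from -1.09 for Nsdhl, which removes methyl groups from the ring, to 0.76 for Insig1, with adjusted p from 0.0556 to 0.995. Of the 17 enzymes 9 had positive and 8 negative changes, with a median of 0.00, and the median over all 22 sterol members was 0.34, against 0.08 for all features. That sterol median was 0.22 without array 3 without tumors or with quantile scaling, 0.17 with normexp background correction, 0.00 with averaged probes and -0.74 without scaling. In 12 sterol members all arrays without tumors lay above all DMH arrays (32.8% of features did so), and in 6, namely Lss, Nsdhl, Mvk, Tm7sf2, Ebp and Stard4, all lay below (27.2% of features). Lss, which closes squalene epoxide into lanosterol directly after Sqle, had a change of -0.81 ± 0.28 (limma adjusted p = 0.0596), and the mevalonate kinase gene Mvk -0.66 ± 0.24 (limma adjusted p = 0.0643). Mvd and Acat2, the decarboxylase of the mevalonate steps and the thiolase at the entry, had 0.00 and -0.01.

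Array 3 without tumors gave the highest value of all 9 arrays in 10 of 22 sterol members: Hmgcs1, Sqle, Idi1, Fdps, Fdft1, Cyp51, Dhcr7, Msmo1, Mvd and Srebf2. Relative to the DMH mean, the sterol median was 0.27, 0.15 and 0.49 in arrays 1 to 3 without tumors and 0.14, 0.19 and -0.20 in those with tumors; the median of all features lay between 0.04 and 0.12 in these 6 arrays. Single arrays moved the count of members called, and that of all features (6694 of 21964 in the main fit) moved too. It was 5 without array 3 without tumors (5434 features) and 7 without array 1 without tumors (4509 features). Without DMH array 1 it was 3 (4158 features), and without DMH array 2 or DMH array 3 it was 1 (2841 and 2914 features). It was 17 without array 1 with tumors (9941 features), which enters through the shared estimate of the spread. With slide as a random block 0 members were called, of 1006 features.

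In the fatty acid branch the changes went both ways, and the median over 11 members was 0.06. Elovl5, the elongase of polyunsaturated fatty acids, had 3.69, 3.50 and 3.77 without tumors, 3.50, 3.34 and 3.03 with tumors and 2.60, 2.81 and 2.83 in DMH. All butyrate arrays lay above all DMH arrays, and without tumors the rise was 0.91 ± 0.18 (1.87-fold, limma adjusted p = 0.00889). It was the member that kept its call whichever of the 9 arrays was left out, with a change of 0.83 to 0.98. Fads1, a desaturase of the same fatty acids, had 1.43, 1.22 and 1.34 without tumors, 1.35, 0.93 and 1.09 with tumors and 0.73, 0.60 and 0.61 in DMH, likewise with no overlap between butyrate and DMH, and rose by 0.69 ± 0.16 (limma adjusted p = 0.0162); Fads2, the desaturase that acts before it, had -0.18 (limma adjusted p = 0.781).

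Acly makes the acetyl-CoA from which both lipids are built. Its values were 0.08, 1.26 and 1.52 without tumors, 0.33, 2.63 and 1.80 with tumors and 2.74, 2.70 and 2.75 in DMH. The DMH arrays were close together and highest, while array 1 of either butyrate group was far lower than its partners. Acly fell by 3.42 times (-1.77 ± 0.57, limma adjusted p = 0.0455), and the call was lost without any 1 of the 3 arrays without tumors, any 1 of the DMH arrays, or array 3 with tumors (change -2.05 to -1.34, adjusted p up to 0.132).

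Scd1, the desaturase that makes oleate, had 3.43, 2.54 and 2.58 without tumors, 3.76, 2.97 and 3.09 with tumors and 3.77, 3.72 and 3.80 in DMH. Array 1 without tumors stood above its partners, and array 1 with tumors among the DMH arrays. The change without tumors was -0.91 ± 0.29 (limma adjusted p = 0.0447); it was not called in the authors' values, nor without array 2 or 3 without tumors, array 3 with tumors or any 1 of the DMH arrays (adjusted p up to 0.132). Fasn, fatty acid synthase itself, had 5.61, 5.14 and 5.42 without tumors, 4.92, 5.04 and 4.77 with tumors and 5.26, 5.15 and 5.12 in DMH. Its groups overlapped between butyrate without tumors and DMH, and the change was 0.21 ± 0.17 (limma adjusted p = 0.368). Srebf1 had 0.10 ± 0.18 (limma adjusted p = 0.698), and the other members not called lay between -0.29 for Acaca, an acetyl-CoA carboxylase, and 0.08 for Scd2, a desaturase related to Scd1.

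**Figure D2:**
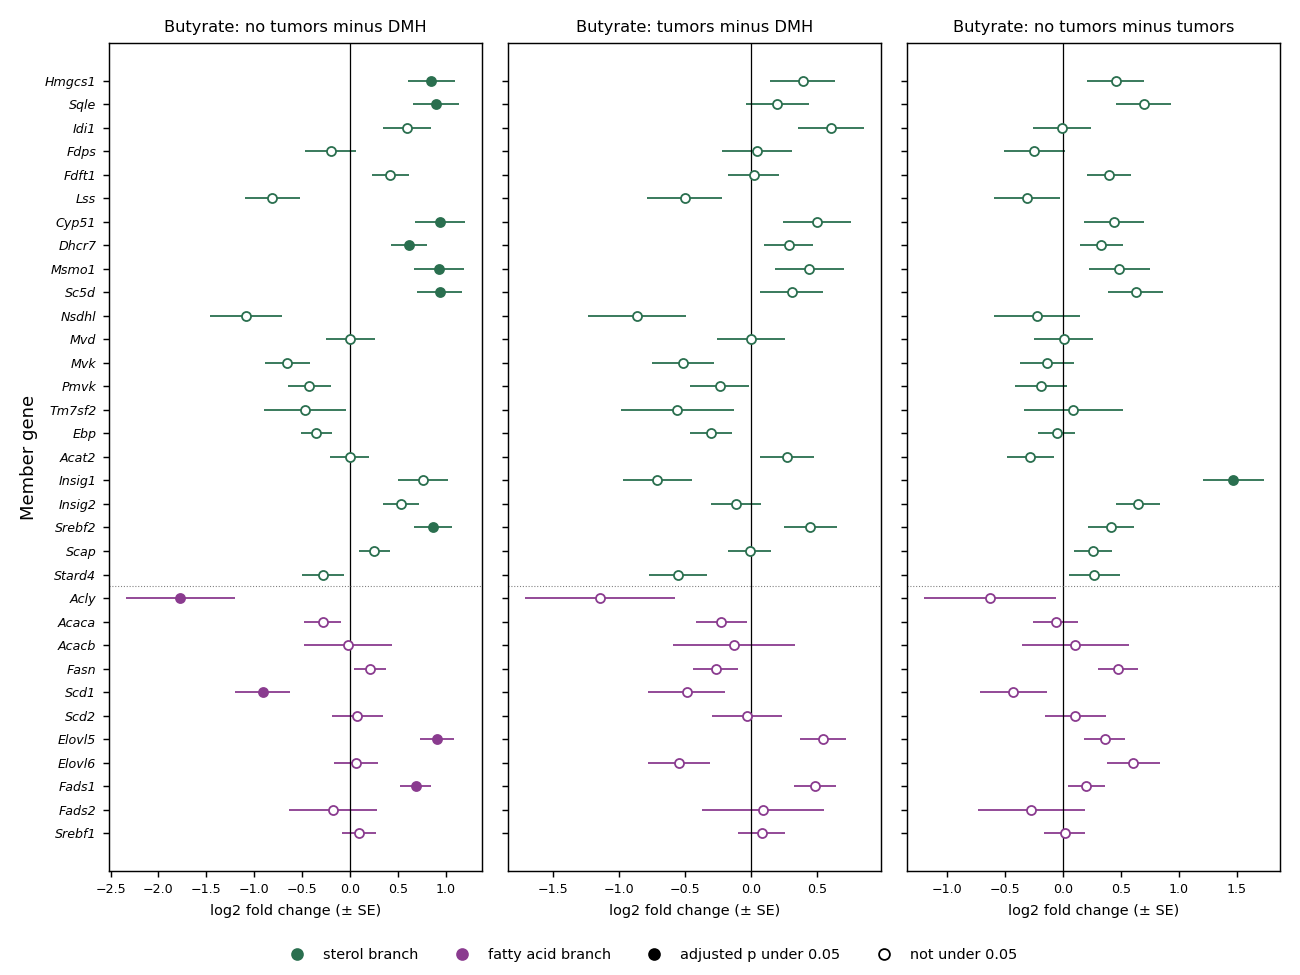
Log2 fold change with its standard error (x axes, which differ between panels) of all 33 members (y axis) in the comparisons of both butyrate groups with DMH and with each other, 3 arrays against 3. Filled points had an adjusted p under 0.05: 11 members in the first panel, 0 in the middle panel and 1, Insig1, in the last; without scaling between arrays the positive filled points of the first panel are negative.

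Probes of 1 gene did not always move together. For 15 members more than 1 probe was kept, and without tumors against DMH the signs differed within the gene in 9 of 15 (60.0%), against 47.4% of 5191 named genes with several probes. Of 5 called members with several probes, 4 had a probe of the other sign (among all called genes with several probes 42.2% did): Hmgcs1 with -0.23, Cyp51 with -0.91 and -0.20, Dhcr7 with -0.04 and Elovl5 with -0.41. The other probe of Srebf2 had 0.62 (limma adjusted p = 0.112), well above background on 7 of 9 arrays. Over the 15 members the brightest probes had 5 higher and 0 lower calls with a median change of 0.53, and the 19 other probes had 1 higher and 3 lower calls with a median of -0.14.

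Some members would have been called by another probe. Fasn fell in its dimmer probe by 0.76 (limma adjusted p = 0.0332), whereas its brightest probe had a positive change of 0.21. A dimmer probe of Nsdhl fell by 1.68 (limma adjusted p = 0.0228), while another had 0.40. Insig2 had a probe of another RefSeq transcript that fell by 2.02 on the log2 scale (limma adjusted p = 0.0144), whereas its brightest probe had a positive change of 0.53. A dimmer probe of Insig1 rose by 0.87 (0.0151), the same direction as the brightest. These p-values are from limma with all 28521 kept probes as features, of which 30.2% were called. Sqle, Msmo1, Sc5d, Fads1, Scd1 and Acly were each read by 1 kept probe, so no such comparison could be made for them, and the positions of probes in the transcripts were not used.

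**Figure D3:**
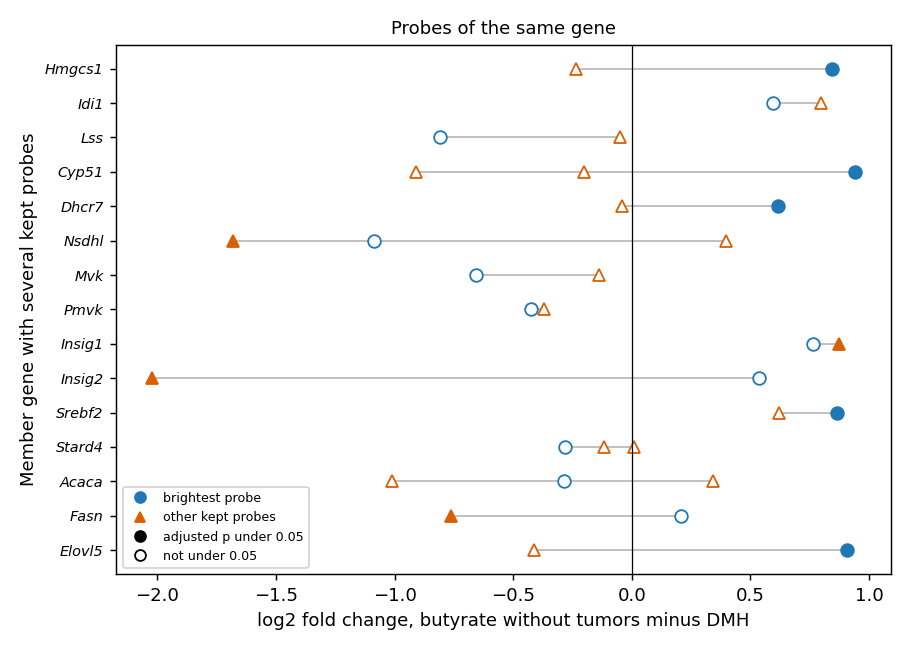
Log2 fold change of butyrate without tumors minus DMH (x axis) for each kept probe of the 15 members with several probes (y axis). Circles are the brightest probe of a gene, triangles its other probes, and filled symbols had an adjusted p under 0.05; in 9 of 15 genes the symbols fall on both sides of 0, and without scaling between arrays the brightest probes of Hmgcs1, Cyp51, Dhcr7, Srebf2 and Elovl5 are negative too.

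Butyrate with tumors against DMH asks the same of the other butyrate group. Here 0 of 33 members were called by limma, where 5.7% of features were called (3.44% higher and 2.26% lower). An unadjusted limma p under 0.05 was found for 7 of 33 members and for 6573 of 21964 features. Normexp background correction, the authors' values, averaged probes and array weights gave 2, 1, 1 and 2 calls of members. Over all features they gave 1111, 1956 (of 17085), 1161 and 4966. The sterol median was 0.01 and the fatty acid median -0.13, against 0.08 for all features. Idi1, the isomerase that makes the active isoprene unit, had the highest sterol change, 0.61 ± 0.25 (limma adjusted p = 0.148), and Nsdhl the lowest, -0.87 ± 0.37 (0.161). For Elovl5 (0.54 ± 0.18, limma adjusted p = 0.0905) and Fads1 (0.48 ± 0.16, 0.096) the arrays with tumors all lay above the DMH arrays, as they did for Idi1 and Srebf2 (4 of 33 members, where 23% of features did so). In 9 of 33 members, namely Lss, Nsdhl, Mvk, Ebp, Insig1, Stard4, Acly, Fasn and Elovl6, they all lay below (19.5% of features).

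The difference between the butyrate groups was tested directly, without tumors minus with tumors, and 1 of 33 members passed, where 13.5% of features did (6.56% higher and 6.99% lower). Insig1, the sterol-responsive anchor of SCAP and itself a target of SREBP, had 2.52, 1.47 and 2.03 without tumors, 0.27, 0.66 and 0.66 with tumors and 1.28, 1.16 and 1.28 in DMH. The arrays without tumors all lay above DMH, and the arrays with tumors all below it. The difference was 1.47 ± 0.26 (2.78-fold, limma adjusted p = 0.0173), made up of 0.76 and -0.71 against DMH, neither of which passed alone. The dimmer probe had 1.17 (limma adjusted p = 0.0166), and the call was lost without array 3 with tumors (1.54, adjusted p = 0.0606).

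Slide 1 held all arrays without tumors and array 1 with tumors, which had the lowest Insig1 value of the 9. With slide as a fixed block the difference in Insig1 was 1.73 (limma adjusted p = 0.0852), in a fit that called 357 of 21964 features. Slide 2 held no array without tumors, so this value rests on array 1 with tumors alone. Within slide 1 the difference is the same contrast, so that its value, also 1.73, is no second check. In a fit of the 6 butyrate arrays alone the difference in Insig1 was 1.47 (limma adjusted p = 0.0778), and that fit called 0 of 21964 features. Beside Insig1, absorptive colonocyte markers (8 genes, summed on the log2 scale) ran from 9.10 to 9.85 without tumors, from 8.29 to 8.89 with tumors and from 9.10 to 9.39 in DMH, and 3 of 8 were called higher and 0 lower between the butyrate groups; their part in the difference was not tested. The other 4 regulators of the sterol branch had differences of 0.26 to 0.65 with no call, among them Insig2 (0.65 ± 0.19, limma adjusted p = 0.0558). Sqle (0.70 ± 0.24, limma adjusted p = 0.0816), Fdft1, the squalene synthase gene, Fasn (0.48 ± 0.17, 0.0906) and Elovl6, the elongase of palmitate (0.61 ± 0.23, 0.106), had groups that did not overlap. None of these 4 passed. With Insig1 and Insig2, the arrays without tumors lay wholly above in 4 of 22 sterol and 2 of 11 fatty acid members (18.2% of each). Among all features 16.6% did so, which is near that share. Wholly below were 0 members of either branch, where 16.8% of features were.

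All 6 butyrate arrays against DMH is the contrast named in the study's design text. In it 1 of 33 members passed, where 9.2% of features did (5.85% higher and 3.35% lower): Elovl5 rose by 0.73 ± 0.19 (6 against 3 arrays, limma adjusted p = 0.0478). Its 6 butyrate values ran from 3.03 through a median of 3.50 to 3.77. The dimmer probe of Elovl5 had -0.34, the call was lost without DMH array 1, 2 or 3, array 1, 2 or 3 without tumors, or array 1 with tumors (0.65 to 0.81, adjusted p up to 0.167), and without scaling the change was -0.12. Fads1 (0.58 ± 0.16, limma adjusted p = 0.0535) was next nearest to the threshold, and Srebf2 (0.66 ± 0.22, 0.0793) and Nsdhl (-0.98 ± 0.32, 0.0786) followed. The sterol median was 0.13 and the fatty acid median -0.05, beside 0.08 for all features.

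Of 22 further genes of sterol supply, transport and control, 4 were called without tumors against DMH (18.2%, where 30.5% of features were). Without tumors 2 of 22 were called higher, the mitochondrial thiolase gene Acat1 (0.68, limma adjusted p = 0.0191) and the oxysterol receptor gene Nr1h2 (0.71, 0.0252). Another 2 were called lower, the site-1 protease gene Mbtps1, whose product cleaves SREBP (-1.05, limma adjusted p = 0.0218), and Npc2, which moves cholesterol out of lysosomes (-1.27, 0.0293). A dimmer probe of Mbtps1 had 0.03.

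Against the arrays with tumors Acat1, Nr1h2 and the lipoprotein receptor gene Scarb1 were higher without tumors by 0.78, 0.76 and 0.57 (limma adjusted p = 0.0258, 0.0388 and 0.0428). These 3 calls were lost with slide as a fixed block, and also without any 1 of the arrays without tumors, array 3 with tumors, or DMH array 2 or 3 (adjusted p up to 0.102 over all arrays left out in turn). The 4 calls against DMH were lost without DMH array 2 or 3 (adjusted p up to 0.0928 over all arrays). None of the 22 passed with tumors against DMH or in all butyrate arrays against DMH. There 7 and 5 had an unadjusted limma p under 0.05, as did 6573 and 6857 of 21964 features.

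Of 24 further measured genes of fatty acid activation, storage and control, 8 were called without tumors against DMH (33.3%, near the 30.5% of all features). Acsl3, which activates long-chain fatty acids for lipid droplets, had 3.74, 3.40 and 3.67 without tumors, 2.09, 2.64 and 2.39 with tumors and 1.93, 2.17 and 2.12 in DMH. Arrays without tumors were far above all others. It rose without tumors against DMH (1.53 ± 0.19, limma adjusted p = 0.00194) and against arrays with tumors (1.23 ± 0.19, 0.0132). Mlxipl, which encodes the carbohydrate-sensing factor ChREBP, had 1.65, 1.62 and 2.06 without tumors, 1.00, 0.82 and 0.43 with tumors and 0.69, 0.52 and 0.49 in DMH, and rose in the same comparisons (1.21 ± 0.20, 0.00549, and 1.02 ± 0.20, 0.022). The calls against DMH of Acsl3 and Mlxipl held whichever array was left out, and those between the butyrate groups were lost without array 3 with tumors and with slide as a fixed block, and for Mlxipl also without array 3 without tumors (adjusted p up to 0.075).

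Also without tumors against DMH, the acyl-CoA synthetase genes Acsl1 (0.76) and Acsl4 (0.66) and the glycerol acyltransferase gene Gpam (0.68) rose, which made 5 of 24 called higher. Another 3 were called lower: Acsl5 (-1.39), Fads3 (-0.85) and Thrsp (-2.09). Acsl1 (0.71) and the triglyceride synthesis gene Dgat1 (0.63) were also higher without than with tumors. Over all butyrate arrays Acsl4 rose (0.67, limma adjusted p = 0.0417) and Thrsp (-2.87, 0.0367), Fads3 (-0.79, 0.0488) and Acsl5 (-1.17, 0.0377) fell. Leaving out any 1 of the DMH arrays ended each of these calls except that of Acsl5 without tumors (adjusted p up to 0.171 over all arrays left out in turn).

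Thrsp, a lipogenic gene strongly expressed in fat tissue, had -0.87, -2.66 and -3.65 without tumors, -3.31, -4.44 and -4.10 with tumors and -0.26, -0.38 and -0.25 in DMH. It was the 1 gene of these 24 called with tumors against DMH (-3.65 ± 0.62, limma adjusted p = 0.0291), and array 1 without tumors was nearest the DMH arrays. The call with tumors was lost without array 3 with tumors or any 1 of the DMH arrays (-3.97 to -3.41, adjusted p up to 0.115). Of 7 measured adipocyte markers, 5 had negative changes without tumors against DMH and 6 with tumors. Called were 0 without tumors (30.5% of features) and 2 with tumors, both lower (28.6%, where 2.3% of features were called lower). Plin4 went the other way in both comparisons (1.06 and 0.28), and Cidec without tumors (0.19). The summed signal of 7 adipocyte markers was 6.37, 4.33 and 3.72 without tumors, 4.08, 2.85 and 2.71 with tumors and 5.13 to 5.26 in DMH, so that array 1 without tumors was the highest and all others with butyrate were below DMH. Adiponectin (Adipoq) had 1.52, -1.29 and -1.63 without tumors and -2.32, -6.90 and -4.64 with tumors, against 0.86 to 1.05 in DMH, and was well above background on 8 of 9 arrays. Among the fatty acid members, array 1 without tumors was also the highest of the arrays without tumors for Scd1. It was the highest of all 9 arrays for Fasn, Elovl6 and Fads1, and the lowest of all 9 for Acly, Scd2, Fads2 and Srebf1. The part of fat cells in these values was not tested.

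**Figure D4:**
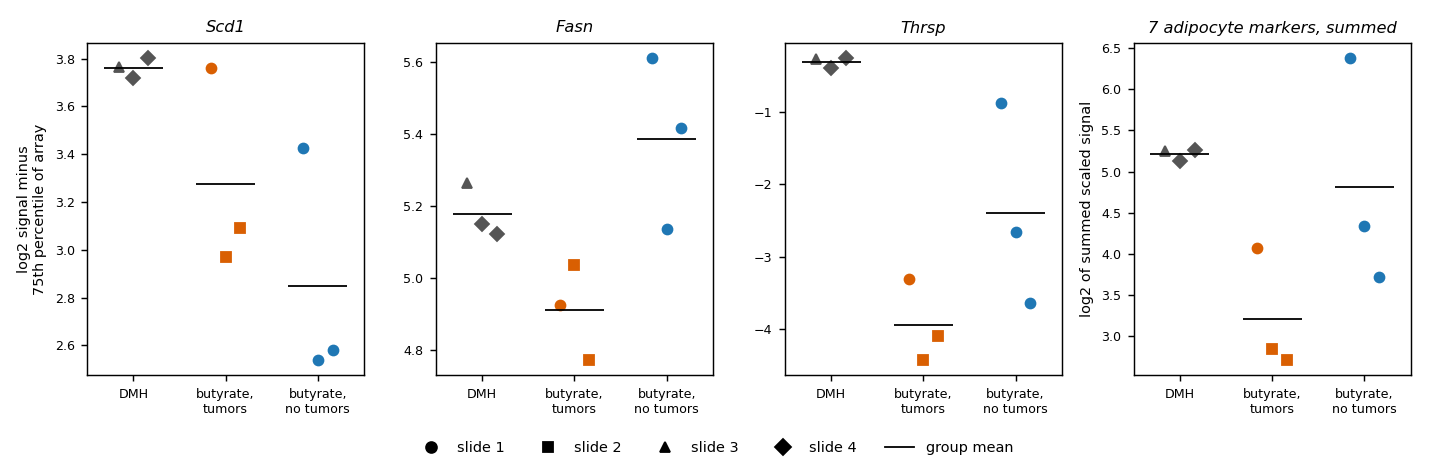
Scd1, Fasn and Thrsp (log2 signal minus the 75th percentile of the array) beside the log2 summed signal of 7 adipocyte markers, by group (x axis). Points are arrays, shapes slides and lines group means; array 1 without tumors has the highest marker sum (6.37) and the Thrsp value nearest DMH (-0.87), while arrays 2 and 3 with tumors have the lowest of both.

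Other cell types differed between the groups as well, and their part in the members' changes was not tested. Without tumors against DMH 5 of 8 epithelial and 4 of 7 goblet cell markers were called lower (13.8% of features were). Negative changes were found in 7 of 8 and 7 of 7 of them. Called higher were 4 of 7 smooth muscle markers and 3 of 7 markers of enteric neurons and glia (16.6% of features). In each of these lists 7 of 7 had positive changes. Of the absorptive colonocyte markers 3 of 8 were called higher and 1 lower, with 6 positive and 2 negative changes. Of the neutrophil markers 3 of 3 measured were called lower without tumors against DMH. Against the arrays with tumors 2 of 3 were called lower (6.99% of features), and 3 of 3 had negative changes. S100a9, a calcium-binding protein gene of neutrophils, had -2.18, -3.57 and -4.81 without tumors, -1.99, -0.14 and 2.08 with tumors and 1.29, 1.30 and 1.36 in DMH, and fell without tumors against DMH (-4.84 ± 0.97, limma adjusted p = 0.00981). S100a8 and Ltf, the other two, were well above background on 6 and 5 of 9 arrays. Array 1 with tumors had a lymphocyte marker sum of 5.84, against 2.35 to 3.70 in the other arrays.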

How the data were processed

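The members and lists were chosen with earlier results of these data known. Per the file headers, the deposited values used (gProcessedSignal) are intensity from Agilent Feature Extraction 10.5.1.1, with background subtracted within the array and no scaling between arrays. The unprocessed spot and background intensity columns of the deposited scanner files served normexp. The authors' deposited value table gives 21829 probes on a log2 scale; compared with the scanner values, every column equalled log2 of gProcessedSignal less a constant (largest SD of the remainder 0.0081), with column medians from 2.71 to 3.20, and what the constant stands for is unknown.

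Control and outlier spots were left out, spots of a probe averaged, and log2 signal was taken minus the array's 75th percentile. Probes well above background on at least 3 arrays and with at least 2 values per group were kept (28521). RefSeq accessions named 26933 of 41174 probes, and the brightest probe stood for a gene. The text names every member called in a comparison, with Insig1, Srebf1, Srebf2, Scap, Fasn, Scd1 and Hmgcs1 whatever their result; Fdft1, Elovl6 and other members outside this rule were chosen after their values were seen. Values of some further genes are not reported here. limma 3.58.1 (R 4.3.3, statmod 1.5.0) compared all butyrate with DMH in a fit of 2 groups, and the rest in a shared fit of 3 groups, 2-sided, adjusted by Benjamini-Hochberg over all features, after tests on simulated data. Arrays give no read depth; their number limits the precision. Summed marker signals are log2 of summed scaled intensity. Alternatives were other scalings, background corrections, filters, probe rules, priors, weights, thresholds, blocks and left-out arrays; a fit without slide 1, averaged DMH arrays 2 and 3, and single probes were added after seeing the data. Tables and plots were made in Python 3.11.15 (pandas 2.3.3, numpy 2.4.6, matplotlib 3.10.9).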

Additional observations from a re-analysis of the deposited data

Results flagged for a closer look

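The squalene synthase gene Fdft1 was flagged because array 3 without tumors, at 3.90, lay apart from the other 5 butyrate arrays (3.09 to 3.35), its gap taking 0.676 of the range where 0.625 is the limit for 6 arrays. Chance flags about 1 in 20 groups, and 33 members were examined.

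Further genes were flagged because their change against DMH differed between butyrate without and with tumors by limma's test of the difference itself. The differences were 1.47 for Insig1, 0.78 for Acat1, 0.76 for Nr1h2, 0.57 for Scarb1, 1.02 for Mlxipl, 0.71 for Acsl1, 1.23 for Acsl3 and 0.63 for Dgat1, each the mean of the 3 arrays without tumors minus the mean of the 3 arrays with tumors. All 8 were lost with slide as a fixed block, where 357 of 21964 features were called. They were also lost in a fit of the butyrate arrays alone. That fit called 0 of 21964 features, so the loss there is not particular to these genes.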

How the results depend on the processing

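The members called depended on the settings, and the cause was not tested. For all butyrate, without tumors, with tumors (each against DMH) and without against with tumors, in this order, the main counts were 1, 11, 0 and 1. Over all 21964 features the main fit called 2020, 6694, 1252 and 2976. No scaling gave 0 members in every comparison (35, 1550, 35 and 1 features). Normexp gave 5, 16, 2 and 4 (1744, 6371, 1111 and 2713 features). The authors' values gave 0, 13, 1 and 7 (1197, 5628, 1956 and 4382 of 17085 features). Array weights gave 20, 22, 2 and 5 (11649, 12729, 4966 and 7310 features). An adjusted p under 0.1 gave 7, 17, 2 and 4 (4543, 9313, 3806 and 5694 features). For all butyrate the count was 2 with quantile scaling (1802 features), the filter on all 9 arrays (2225 of 17159) and a trend and robust prior (2213). It was 3 with 3 groups in the fit (5052 features) or without slide 1 (2504). No filter (511 of 32588 features), DMH arrays 2 and 3 averaged (4) and slide as a random block (17) each gave 0. Without tumors the count was 5 with no filter (4908 of 32588 features), 0 with slide as a random block (1006) and 1 with DMH arrays 2 and 3 averaged (2907). With tumors it was 1 with averaged probes (1161 features). Without against with tumors it was 2 with the filter on all 9 arrays (2787 of 17159 features) and with a trend and robust prior (3271). It was 0 with slide as a fixed block (357 features) and with only the groups compared, where 0 of 21964 features were called. Whether the replicate number pairs the samples is unknown. Correlations of deviations ran from -0.01 to 0.26 for same-numbered arrays of different groups and from -0.24 to 0.23 for differently numbered ones. The replicate number as a block gave 0, 10, 0 and 2 members (583, 6866, 477 and 2809 features). Leaving out 1 array gave 0 to 6, 1 to 17, 0 to 1 and 0 to 6 members. Over all features it gave 7 to 3626, 2841 to 9941, 4 to 1792 and 177 to 7774.

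Medians of sterol members with no scaling were -0.72, -0.74, -0.60 and -0.20, and of fatty acid members -0.89, -1.02, -0.74 and -0.36, where the median of all features was -0.76, -1.0, -0.53 and -0.48. In the authors' values the sterol median was -0.17 with tumors and 0.56 without against with tumors, and the fatty acid median -0.31 and 0.40 (all features -0.11 and 0.36). The sterol median without tumors was 0.17 with normexp and 0.00 with averaged probes, and without against with tumors 0.04 with normexp. Leaving out 1 array gave sterol medians of 0.08 to 0.18, 0.22 to 0.43, -0.04 to 0.09 and 0.20 to 0.36, and fatty acid medians of -0.12 to 0.02, -0.06 to 0.12, -0.20 to 0.07 and -0.14 to 0.16.

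With no scaling the sign turned without tumors for Hmgcs1 (-0.23), Sqle (-0.18), Cyp51 (-0.14), Dhcr7 (-0.46), Msmo1 (-0.15), Sc5d (-0.14), Srebf2 (-0.22), Elovl5 (-0.17), Fads1 (-0.39), Acat1 (-0.40), Nr1h2 (-0.37), Acsl1 (-0.32), Acsl4 (-0.42) and Gpam (-0.40), and over all butyrate for Elovl5 (-0.12) and Acsl4 (-0.17). In other probes it turned for Hmgcs1 (-0.23), Cyp51 (-0.91 and -0.20), Dhcr7 (-0.04), Elovl5 (-0.41, and -0.34 over all butyrate), Acsl1 (-0.02) and Mbtps1 (0.03), and with averaged probes for Cyp51 (-0.06).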
